A study of Mus musculus with 2 samples.

Results

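The nuclear genes of respiratory complexes II to V were described in total RNA of the mouse gastrocnemius, the large muscle of the calf. Members were chosen by symbol among genes with a protein_coding transcript: Sdha to Sdhd and the Sdhaf assembly factors for complex II, Uqcr genes for complex III, Cox4 to Cox8 genes for complex IV and Atp5 genes for complex V. The rule found 52 gene identifiers with 51 symbols among the 55536 genes listed, of which 8 belong to complex II, 8 to complex III, 18 to complex IV and 18 to complex V. Atp5o has 2 identifiers, and the second of them (ENSMUSG00000116933.1) was listed at 0 counts in both libraries.

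The tissue came from adult female mice of 8 to 10 months from a 5xFAD and CAST cross, where 5xFAD is a transgenic line used to model Alzheimer disease, with transgenes under the neuronal Thy1 promoter, and CAST is a wild-derived inbred strain. The 2 libraries form 1 group with no control genotype, tissue or age, and both carry the same donor identifier beside separate sample identifiers, so the labels do not settle whether they stem from separate animals and the spread between them may be technical. Each library was made from 300 ng of RNA with a directional kit and ERCC spike-ins. Library 1 held 35594289 expected counts and library 2 held 34541905, with 0.479% and 0.505% in spike-ins. All 6 skeletal muscle fibre markers were present, at a summed 59017 and 67956 TPM, a unit that divides reads by transcript length and is relative to the whole library, while the 7 testis germ cell markers were at 0 counts and 4 of 5 brown fat markers were below TPM 1. In whole tissue, fewer cells of a type and less RNA per cell cannot be told apart.

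The complexes sit in the inner mitochondrial membrane. Complex II oxidises succinate and passes the electrons to ubiquinone, complex III passes them on to cytochrome c, complex IV hands them to oxygen, and complex V makes ATP from the proton gradient, to which complexes I, III and IV contribute. Complex II is encoded wholly in the nucleus, whereas the others combine nuclear subunits with subunits encoded in mitochondrial DNA. Several nuclear subunits of complex IV have paralogs that are used in different tissues, among them the heart and skeletal muscle forms Cox6a2, Cox7a1 and, in rodents, Cox8b.

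Most members were abundant. At a detection level of TPM 1 in both libraries, 47 of the 52 identifiers were detected, 4 were below it in both (Cox6b2, Cox7b2, Cox8c and the second Atp5o identifier) and Cox4i2 lay on either side. All 8 members of complex II, all 8 of complex III, 14 of 18 of complex IV and 17 of 18 of complex V passed. By mean TPM, 48 of the 52 were at 1 or above, beside 10096 of all 22015 nuclear protein-coding genes. At a mean TPM of at least 100 stood 38 members, beside 502 nuclear protein-coding genes. Those 502 are 2.28% of the 22015, or 4.97% of the 10096. The median of mean TPM over members at TPM 1 or above was 298, against 7.555 over those 10096 genes.

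As a share of all nuclear protein-coding TPM, the members held 3.521% in library 1 and 3.549% in library 2 (3.535 ± 0.0199%, mean ± SD, n = 2 libraries, as in all means here). Complex V took 1.55 ± 0.00504%, complex IV 1.17 ± 0.0148%, complex III 0.602 ± 0.00196% and complex II 0.205 ± 0.00195%. The 4 shares lay further apart than their spread between libraries. They are sums over unequal numbers of genes and say nothing of the number of complexes.

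**Figure D1:**
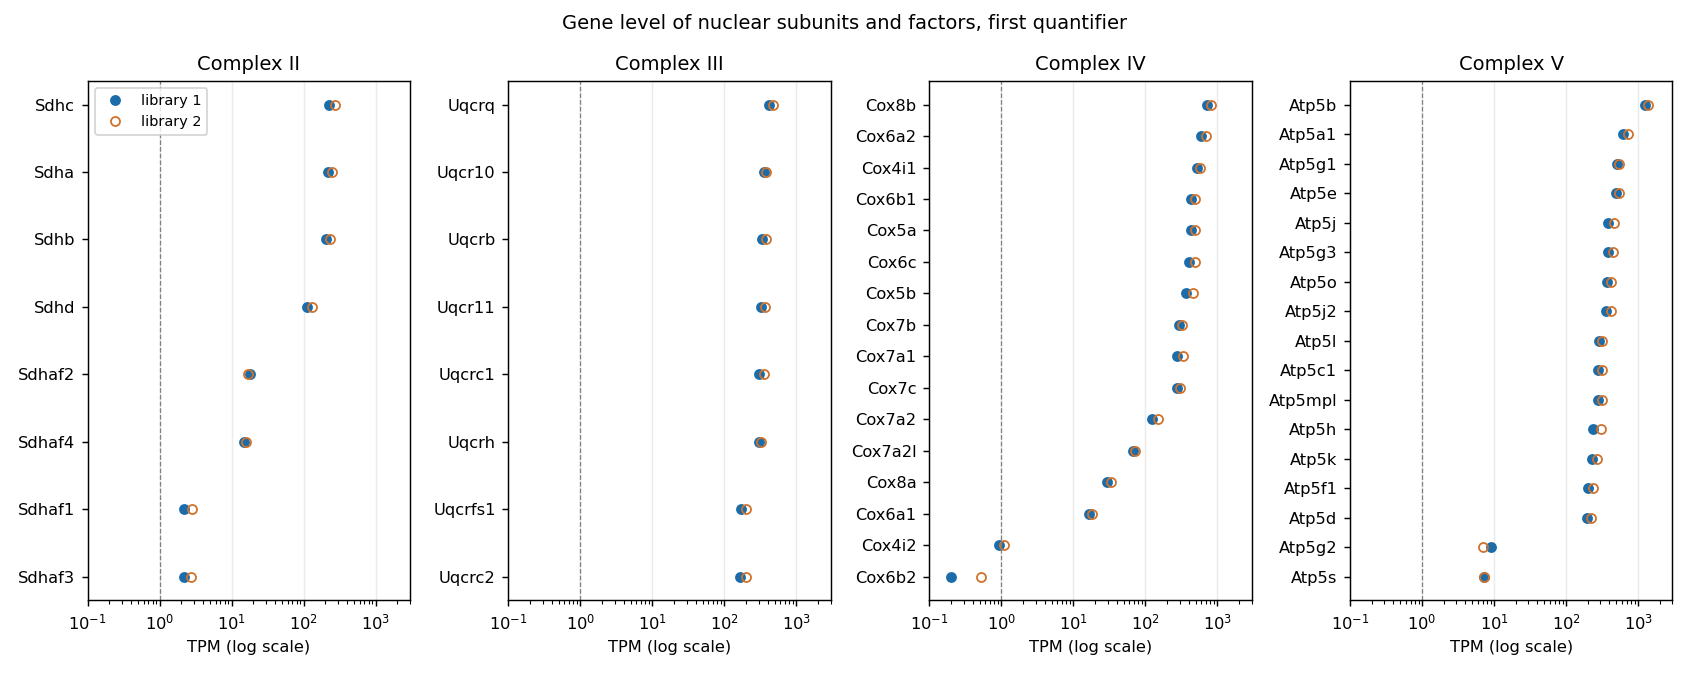
Gene level in TPM (log scale) of every member with a count, by complex, for library 1 (filled) and library 2 (open) in the first quantifier. The dashed line marks TPM 1. The structural subunits of complexes II and III sit close together, from 121 TPM for Sdhd to 445 TPM for Uqcrq. Those of complexes IV and V with a mean TPM of at least 100 run from 138.5 to 774 and from 209 to 1311 TPM. Members below TPM 10 occur in complexes II, IV and V.

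In complex II, the catalytic and anchor subunits lay within a 2.05-fold range in the first quantifier and the assembly factors far below them. Sdha, the flavin-bearing catalytic subunit, stood at 218.29 and 245.71 TPM in libraries 1 and 2 (232 ± 19.4). Sdhb, the iron-sulphur subunit, stood at 204.04 and 232.88 TPM. The membrane anchors Sdhc and Sdhd stood at 222.77 and 273.42 TPM and at 112.69 and 129.22 TPM. Sdhd was the lowest of the 4 in both libraries. Sdhc was above Sdha in both libraries in the first quantifier, though their means differed by less than the SD of either. That SD includes a shift common to most genes, as 78.5% of the genes compared had a higher deposited TPM in library 2. In the second quantifier Sdhc (306 and 358 TPM) was also above Sdha (186 and 222 TPM), and the range of the 4 was wider.

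Of the 4 complex II assembly factors, Sdhaf2, which attaches the flavin to Sdha, had 18.17 and 17.07 TPM, and Sdhaf4, a chaperone of Sdha, had 15.01 and 15.73 TPM. Sdhaf1 and Sdhaf3, which serve the maturation of Sdhb, had 2.19 and 2.80 TPM and 2.20 and 2.69 TPM. The 2 factors that act on Sdha were above the 2 that act on Sdhb in both libraries.

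All 8 complex III genes were at a mean between 179 and 445 TPM, a 2.48-fold range. Uqcrq, a small accessory subunit, led with 413.75 and 475.99 TPM, followed by Uqcr10 (357.49 and 379.23), Uqcrb (331.41 and 381.52), Uqcr11 (323.93 and 371.56) and the core subunit Uqcrc1 (298.15 and 353.59). Uqcrb passed Uqcr10 in library 2 only, so their order was not fixed. In the second quantifier Uqcr11 (411 and 480 TPM) was above Uqcr10 (380 and 422 TPM). The other core subunit, Uqcrc2, had 162.49 and 196.35 TPM, and Uqcrfs1, the Rieske iron-sulphur protein that carries electrons toward cytochrome c1, had 172.58 and 197.85 TPM. These last were the lowest of the complex, and Uqcrc2 was below Uqcrc1 in both libraries.

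The nuclear subunits of complex IV ranged more widely. Cox8b was highest at 725.87 and 821.70 TPM (774 ± 67.8). Cox6a2 followed at 587.15 and 698.60 TPM (643 ± 78.8) and Cox4i1, the common form of a large nuclear subunit, at 521.79 and 575.65 TPM (549 ± 38.1). In the first quantifier this order held in both libraries, and the values of neighbours in it did not overlap. In the second, Cox4i1 (591 and 687 TPM) and Cox6a2 (585 and 721 TPM) overlapped, so their order is not settled. Cox6b1 (434.87 and 496.24 TPM), Cox5a (425.81 and 493.19) and Cox6c (405.52 and 495.19) lay close together, and Cox6c passed Cox5a in library 2 only. Cox5b stood at 366.48 and 461.17 TPM, Cox7b, which lies on the X chromosome, at 291.20 and 325.00, and Cox7c at 277.07 and 303.14. Cox7a2l, a relative of the Cox7a subunits that takes part in joining complexes III and IV, stood at 66.83 and 71.17 TPM.

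In the first quantifier complex V was led by its catalytic head. Atp5b, the beta subunit with the catalytic sites, stood at 1243.66 and 1378.26 TPM (1311 ± 95.2) and was the highest member of all. Atp5a1, the alpha subunit, followed at 622.25 and 728.42 TPM, less than the beta subunit by more than the spread between libraries. In the second quantifier Atp5e stood at 808 and 879 TPM, above Atp5a1 at 595 and 736 TPM, so the place of Atp5a1 is not settled. The central stalk genes Atp5c1, Atp5d and Atp5e had means of 296, 209 and 520 TPM, and the peripheral stalk genes Atp5f1, Atp5h, Atp5j and Atp5o had means of 217, 272, 427 and 394 TPM. The membrane accessory genes Atp5j2, Atp5l, Atp5mpl and Atp5k lay between 249 and 386 TPM. Atp5s, a factor that is related to the complex and not a core subunit, was far below these at 7.14 and 7.33 TPM.

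Among the alternative isoform genes, each heart and skeletal muscle form of complex IV exceeded its more widely expressed paralog, by margins from 2.19-fold to 36.9-fold. Cox6a2 (chromosome 7, 128205435 to 128206387, mm10) stood at 587.15 and 698.60 TPM against 16.40 and 18.38 TPM for Cox6a1 (chromosome 5, 115345642 to 115348981). The log2 ratio was 5.16 in library 1 and 5.25 in library 2 (5.21 ± 0.061), which is 36.9-fold, and Cox6a2 made up 97.4 ± 0.109% of their sum. Their counting intervals (95%, exact binomial, covering counting error only) were 31.5 to 40.9-fold and 33.3 to 43.5-fold.

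Cox8b (chromosome 7, 140898945 to 140900446) exceeded Cox8a (chromosome 19, 7215153 to 7217616; 29.60 and 33.89 TPM) by a log2 ratio of 4.62 in library 1 and 4.60 in library 2 (4.61 ± 0.0116), or 24.4-fold. Cox8b made up 96.1 ± 0.0304% of the Cox8 sum. Cox8c, a testis form, was at 0 counts, and Cox8a exceeded it at least 107-fold and 106-fold where 3 counts per library are taken as the floor.

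The Cox7a pair was the least skewed of these 3. Cox7a1 (chromosome 7, 30184144 to 30186078) stood at 272.46 and 333.30 TPM and Cox7a2 (chromosome 9, 79755361 to 79759878) at 124.99 and 151.99 TPM. The log2 ratio was 1.12 and 1.13 (1.13 ± 0.00609), or 2.19-fold, and Cox7a2 still held 31.4 ± 0.0909% of the pair. The muscle form was the higher in both libraries. This ratio depended on the quantifier and on length correction: it was 1.75-fold in the second quantifier and 0.33 on the log2 scale in counts not corrected for length, with Cox7a1 higher in each.

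The members of these 3 pairs differ along their coding sequences. Over the aligned coding sequence of GENCODE M21, Cox6a2 and Cox6a1 were 62.5% identical, Cox7a1 and Cox7a2 61.4%, and Cox8b and Cox8a 56.9%. A 90-base stretch near the 3′ end of each coding sequence is shown for both members of a pair, with the bases that differ in capitals, because such positions separate the isoforms counted above. Of these 6 genes, Cox6a1 was the only 1 to share at least 20% of its 31-base words with another gene (23.8%, with a pseudogene at 0 counts in the first quantifier). In these stretches 24 bases differed between the Cox6a genes, 33 between the Cox7a genes and 36 between the Cox8 genes.
Cox6a2: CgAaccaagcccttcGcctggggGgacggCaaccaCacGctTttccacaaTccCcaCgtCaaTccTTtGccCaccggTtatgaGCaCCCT
Cox6a1: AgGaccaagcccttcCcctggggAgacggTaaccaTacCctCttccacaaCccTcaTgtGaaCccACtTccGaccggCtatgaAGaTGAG
Cox7a1: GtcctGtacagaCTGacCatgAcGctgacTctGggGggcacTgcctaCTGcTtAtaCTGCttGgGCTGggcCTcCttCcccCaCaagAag
Cox7a2: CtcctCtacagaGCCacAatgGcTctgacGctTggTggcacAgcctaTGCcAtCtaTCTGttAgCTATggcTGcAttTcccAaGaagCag
Cox8b: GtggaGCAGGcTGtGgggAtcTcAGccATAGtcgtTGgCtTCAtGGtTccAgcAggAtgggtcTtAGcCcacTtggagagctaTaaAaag
Cox8a: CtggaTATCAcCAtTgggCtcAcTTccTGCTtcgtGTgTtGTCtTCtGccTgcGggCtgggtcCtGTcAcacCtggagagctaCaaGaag

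The low partners of the other pairs were at or near the limit of these libraries. Cox4i2, a form linked to oxygen sensing and found in pericytes, had 18 counts in each library and 0.94 and 1.09 TPM, so that Cox4i1 exceeded it 541-fold (log2 9.08 ± 0.0508). Its counting intervals were wide, from 351 to 937-fold in library 1 and from 334 to 891.5-fold in library 2. Of the 7 smooth muscle and pericyte markers, 6 were at TPM 1 or above, with a summed level of 119 and 134 TPM. Most of that sum came from Rgs5 (46.85 and 51.19 TPM) and Abcc9 (46.36 and 53.97). Kcnj8 (2.45 and 3.19) and Ndufa4l2 (3.23 and 3.83) were low, and Higd1b was below TPM 1. The part of these markers in the Cox4i2 signal was not tested. Cox6b2, a testis form, had 2 counts in library 1 and 4 in library 2, and Cox6b1 exceeded it by a ratio whose interval ran from 602 to 17958-fold in library 1 and from 372.5 to 3504-fold in library 2. Cox7b2, also a testis form, had 0 counts, and Cox7b exceeded its floor of 3 counts at least 1304-fold and 1259-fold.

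**Figure D2:**
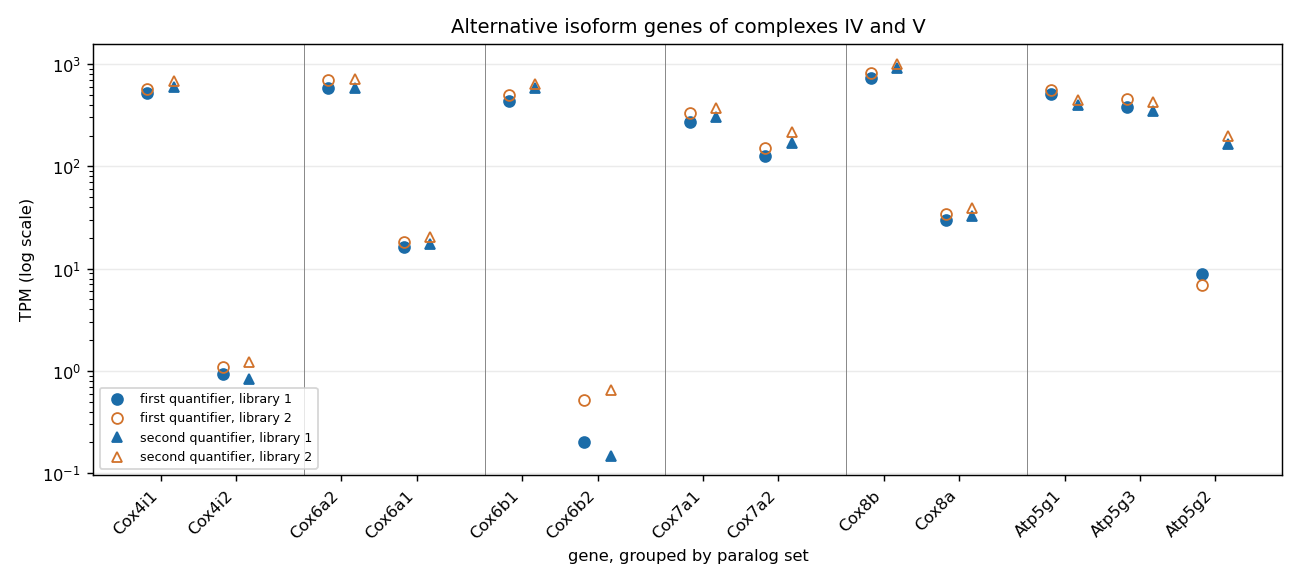
TPM (log scale) of the alternative isoform genes, grouped by paralog set, in library 1 (filled) and library 2 (open), for the first quantifier (circles) and the second (triangles). Cox6a2, Cox7a1 and Cox8b lie above Cox6a1, Cox7a2 and Cox8a in both libraries and both quantifiers, and Atp5g2 is the gene whose level moves most with the quantifier, from 7.94 to 181 TPM.

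RefSeq promoter windows (GRCm38.p6, 250 bases before to 50 after each gene's start) were matched for 40 of the 51 symbols. Not matched were Atp5a1, Atp5mpl, Cox4i1, Cox4i2, Cox6a2, Cox6c, Cox8c, Sdhc, Uqcrb, Uqcrc2 and Uqcrq. The windows of Cox8b (chr7:140900437-140900616), Cox8a (chr19:7217607-7217786) and Cox6a1 (chr5:115348949-115349128) are shown from 170 bases before to 10 after the start, all from the minus strand, because they set a muscle form beside its paralog and a second non-muscle form. Capitals mark matches to the letters searched on both strands.
Cox8b: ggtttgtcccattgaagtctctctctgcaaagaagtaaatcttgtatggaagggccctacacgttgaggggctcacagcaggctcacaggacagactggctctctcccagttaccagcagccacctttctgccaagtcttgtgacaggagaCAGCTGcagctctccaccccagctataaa
Cox8a: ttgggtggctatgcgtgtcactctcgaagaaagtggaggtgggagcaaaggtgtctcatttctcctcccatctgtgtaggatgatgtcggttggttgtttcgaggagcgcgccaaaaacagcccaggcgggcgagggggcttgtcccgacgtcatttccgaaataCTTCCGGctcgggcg
Cox6a1: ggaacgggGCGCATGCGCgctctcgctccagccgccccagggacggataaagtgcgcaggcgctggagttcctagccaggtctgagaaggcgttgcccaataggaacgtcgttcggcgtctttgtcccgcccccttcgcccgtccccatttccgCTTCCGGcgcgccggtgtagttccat

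In these windows, the capitals in Cox8b are an E-box, CAGCTG, a word bound by myogenic factors. The capitals in Cox8a are the reverse complement of CCGGAAG, the core of GABP (also called NRF-2). Cox6a1 held that core and GCATGCGC, the core of NRF1, found on both strands. Cox8b held none of the NRF1, GABP, ERR, YY1 or MEF2 words in its window, which says only that these letters are not there. The Cox7a pair did not show this contrast: Cox7a1 and Cox7a2 were matched, and their windows held none of the words searched, the E-box included. Cox6a2 was not matched, so the Cox6a pair could not be compared.

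Of the 40 matched members, 15 held the GABP core in a window (37.5%), against 9.93% of 27025 genes in the same table. The NRF1 core was found in 7 (Atp5g2, Atp5k, Atp5l, Cox6a1, Sdhb, Uqcr11 and Uqcrc1), or 17.5% against 3.05%. The ERR word AAGGTCA was found in 5 (12.5% against 5.38%) and the YY1 word GCCATNTT in 6 (15.0% against 6.96%). CAGCTG was found in 2, Atp5b and Cox8b (5.00% against 18.3%), and a MEF2 consensus in 0, against 3.70%. NRF1 and GABP are known as regulators of respiratory genes. The matches are descriptions of sequence, not of binding, and the shares are given with no test.

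The c-ring of complex V is encoded by Atp5g1, Atp5g2 and Atp5g3, whose different precursors give the same mature subunit. Atp5g1 stood at 507.07 and 551.38 TPM and Atp5g3 at 382.09 and 450.81 TPM, a ratio of 1.27-fold (log2 0.35 ± 0.0833). The size of this ratio is not settled: its log2 was 0.13 ± 0.0994 in the second quantifier and 0.066 ± 0.08 in expected counts. With the second quantifier's effective lengths it was 0.44 ± 0.0816. Atp5g2 was listed far lower, at 8.93 and 6.95 TPM, or 0.842 ± 0.216% of the sum of the 3 genes. The second quantifier gave another picture for Atp5g2, with 166 and 196 TPM and 18.3% of the sum, while it left Atp5g1 and Atp5g3 within 1.5-fold of the first.

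Atp5g2 has a near copy in the genome, the transcribed processed pseudogene Gm10175 (chromosome 7, 23946646 to 23947290). All 438 bases of the Atp5g2 coding sequence, without its stop codon, were identical to the pseudogene's transcript, and 87.7% of the 31-base words of the main Atp5g2 transcript were found in it. The last 90 of those coding bases are shown, in lower case throughout because no base differs.
Atp5g2: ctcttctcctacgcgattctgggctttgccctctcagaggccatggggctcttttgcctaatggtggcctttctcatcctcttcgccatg
Gm10175: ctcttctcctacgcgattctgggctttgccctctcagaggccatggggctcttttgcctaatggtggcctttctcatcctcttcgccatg

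The first quantifier gave Atp5g2 171 and 115 expected counts and Gm10175 3591 and 3511. The second gave Atp5g2 3230 and 3220 estimated counts and Gm10175 762 and 704. The split was thus reversed, while the sum of member and copies was 3762 and 3626 in the first and 3992 and 3924 in the second. For Atp5g2 alone the second exceeded the first 18.9-fold and 28.1-fold in counts; for the sum it did so 1.06-fold and 1.08-fold. The sum was thus similar in both quantifiers, and the level of Atp5g2 itself is uncertain. The posterior SD of its expected count, a score deposited by the authors, was 39.34 and 34.05.

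Copies of this kind were common among the members. Of the 48 identifiers with a mean TPM of at least 1, 15 shared at least 20% of their 31-base words with another gene, beside 10.8% of 10080 nuclear protein-coding genes, and 22 shared none, beside 55.0% of those genes. Over all members, 24 other genes each held at least 20% of the words of a member, belonging to 12 members by symbol. Of the 24, 19 are annotated as processed pseudogenes with no further qualifier. Also among them is Donson, a protein-coding gene that overlaps the second Atp5o identifier on chromosome 16. That identifier is not among the 48, and its words shared with Donson come from an overlapping gene. In the first quantifier 11 of the 24 were at TPM 1 or above in both libraries, and in the second 6 were.

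Cox7c was the member with the next largest share of reads in copies. Its whole coding sequence of 189 bases was identical to the processed pseudogene Gm12338 (chromosome 11, 75599763 to 75599954), which the first quantifier placed at 705.65 and 795.69 TPM, above Cox7c itself at 277.07 and 303.14 TPM. In counts Gm12338 had 1974 and 1925 against 3567 and 3391 for Cox7c, and the short length of the pseudogene puts its TPM above that of the gene. The second quantifier gave Gm12338 0 counts and Cox7c 5551 and 5450. With a further copy, Gm10012, the sums were 5885 and 5669 in the first and 5551 and 5452 in the second.

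Other members also had reads in copies in the first quantifier. Atp5h had 3633 and 4035 counts with 874 and 910 in the pseudogene Gm10250, which the second quantifier gave 0. Atp5l had 3933 and 3708 counts with 1320 and 850 in Gm10221, which the second quantifier gave 166 and 0. Atp5g1 had 284 and 222 counts in Gm10039, again 0 in the second. For Atp5l and Atp5g1 the member did not gain in the second quantifier: Atp5l had 3734 and 3427 counts there, and with copies added the second over the first was 0.745 and 0.754. Atp5o went the other way, with 126 and 106 counts in its copy Gm5436 in the first quantifier and 361 and 384 in the second. Cox7a2l had 331 and 324 counts in Gm6969, and Cox5b had 289 and 296 in Gm11273, an entry annotated as protein_coding. These last 2 copies kept counts in the second quantifier, at 209 and 210 and at 141 and 122.

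**Figure D3:**
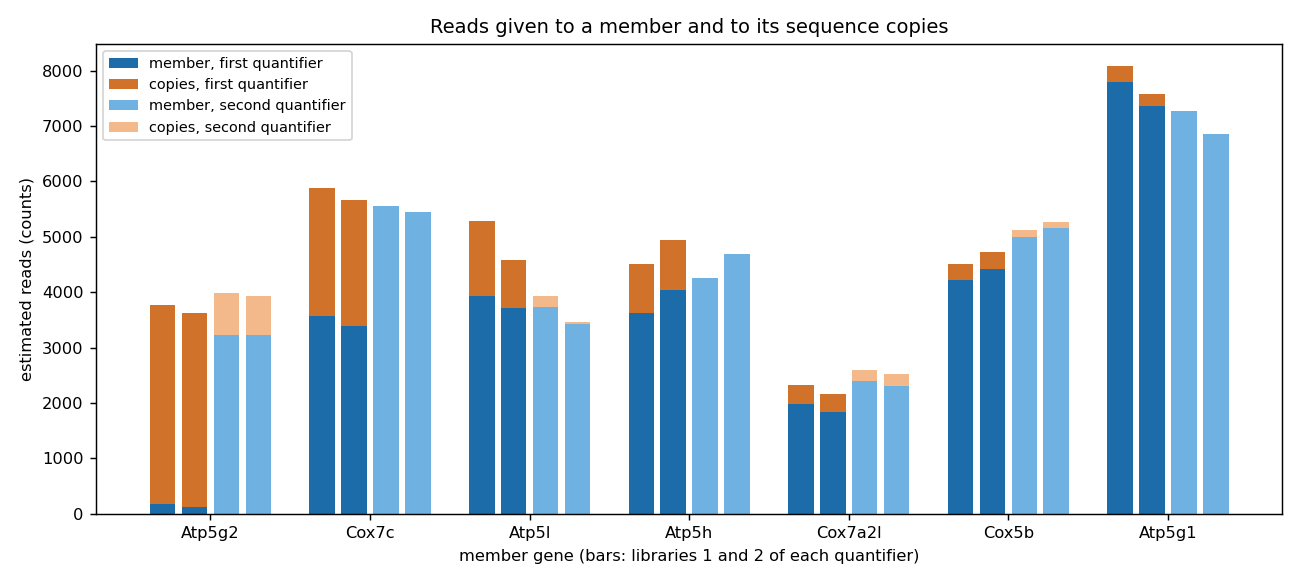
Estimated reads (counts) given to 7 members (lower part of each bar) and to their sequence copies (upper part), in libraries 1 and 2 of the first quantifier (dark) and of the second (light). For Atp5g2 the first quantifier gives 171 and 115 counts to the member and the second 3230 and 3220, while the height of the full bars changes 1.06-fold and 1.08-fold.

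Across the 48 members, 45 had levels within 1.5-fold between quantifiers after each was scaled to nuclear protein-coding TPM. The 3 that did not, Atp5g2 (22.2-fold), Cox7c (1.73-fold) and Atp5e (1.60-fold), were all higher in the second. Over 10077 nuclear protein-coding genes, 3.11% were more than 1.5-fold apart in either direction and 1.83% were more than 1.5-fold higher in the second. Atp5e, the epsilon subunit, shared none of its words with another gene. With the second quantifier's effective lengths put in place of the first's, 47 of 48 members were within 1.5-fold and Atp5g2 alone was apart.

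Many members are short. Their median effective length was 582 bases, against 2275 over nuclear protein-coding genes. The first quantifier took 100 bases off each transcript to give the effective length, and the second took off 228 in library 1 and 231 in library 2. The 30 members below 700 effective bases had a median log2 ratio of second over first of 0.27, and the 18 longer ones had -0.06, against -0.07 over all genes compared. Across the 48 members Spearman's rho of this ratio with effective length was -0.56, and Pearson's r with log2 effective length was -0.22, descriptions only, since all points share both libraries. With common effective lengths rho was 0.39, of the opposite sign, and the medians were -0.11 and -0.01.

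**Figure D4:**
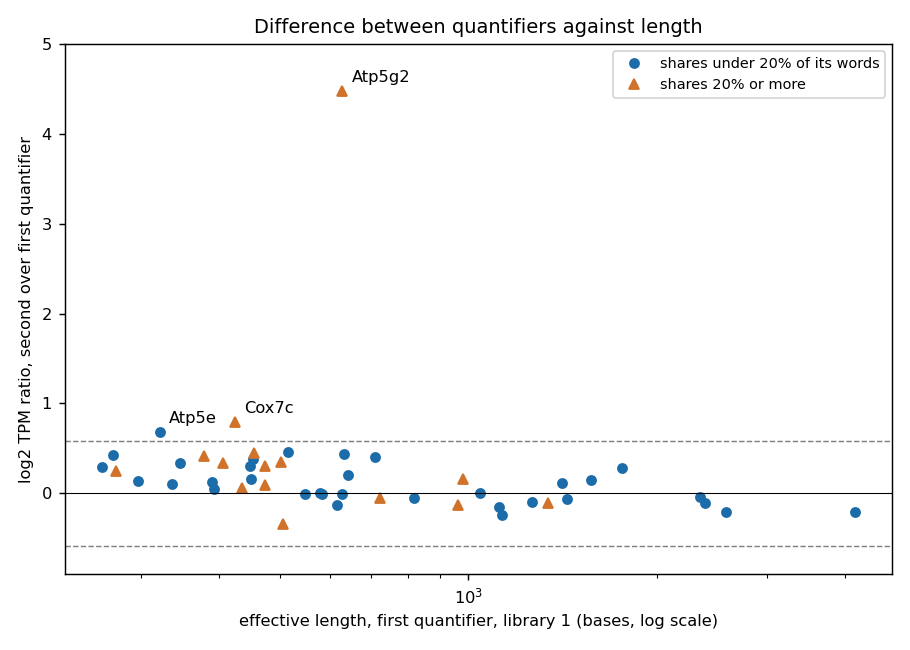
Log2 TPM ratio of the second over the first quantifier against effective length in bases (log scale), with triangles for members that share at least 20% of their words with another gene and circles for the rest. Dashed lines mark 1.5-fold. Atp5g2 stands alone at a log2 ratio of 4.48, Cox7c and Atp5e lie just above the upper line, and longer members lie around 0.

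Between the libraries, members differed little. Ratios of library 2 over library 1 were taken on expected counts scaled by TMM (trimmed mean of M values) for the 47 members with a mean TPM of at least 1 and a summed count of at least 100. None of the 47 was 1.5-fold apart, beside 3.29% of 10486 background genes, and 34 were higher in library 2, beside 52.0%. The median log2 ratio was 0.03 over members and 0.01 over the background. The median absolute log2 ratio was 0.046 over members, 0.113 over the background and 0.079 over 502 nuclear protein-coding genes at TPM 100 or above. With 2 libraries of 1 group an exact sign-flip test cannot go below p = 0.5, so no test was made.

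By complex, 6 of 8 members of complex II, 5 of 8 of complex III, 10 of 14 of complex IV and 13 of 17 of complex V were higher in library 2, with median log2 ratios of 0.03, 0.03, 0.03 and 0.05. The direction of so small a shift depended on the scaling. On deposited TPM 45 of the 47 were higher in library 2, beside 78.5% of the background (median 0.20, background 0.17). On spike-in totals 10 were, beside 34.4% of the background (median -0.04, background -0.06). In each scaling run the median over members lay within 0.03 of that of the background. Scalings by a single factor per library, TMM and spike-in totals among them, shift all genes alike, so for them this distance was fixed in advance. The 4 markers of slow and fast oxidative fibres had a median of 0.25 and summed levels of 1045 and 1276 TPM. The 3 higher in library 2 were Myh7 (0.33), Tnnt1 (0.29) and Tnni1 (0.20), while the fast oxidative marker Myh2 was lower (-0.08). The part of these 4 markers in the members' ratios was not tested.

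The 5 members furthest apart were Atp5g2, Atp5h, Sdhaf1, Sdhaf2 and Cox6c. Atp5g2 had a log2 ratio of -0.53 (171 and 115 counts, counting interval -0.89 to -0.18), and its reads are shared with Gm10175 as given above. Atp5h had 3633 and 4035 counts and a ratio of 0.19 (0.13 to 0.26). Sdhaf1, with 159 and 176 counts, had 0.19 (-0.13 to 0.50), an interval that holds 0. Sdhaf2 had -0.15 (-0.29 to -0.0042) from 869 and 764 counts, and Cox6c had 0.12 (0.066 to 0.18) from 5002 and 5297 counts. All members but Atp5g2 lay within 0.2 of 0, and the intervals of 19 of the 47 left out 0 for counting error alone. No share over the background is given for this count, so it shows nothing particular to the members.

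**Figure D5:**
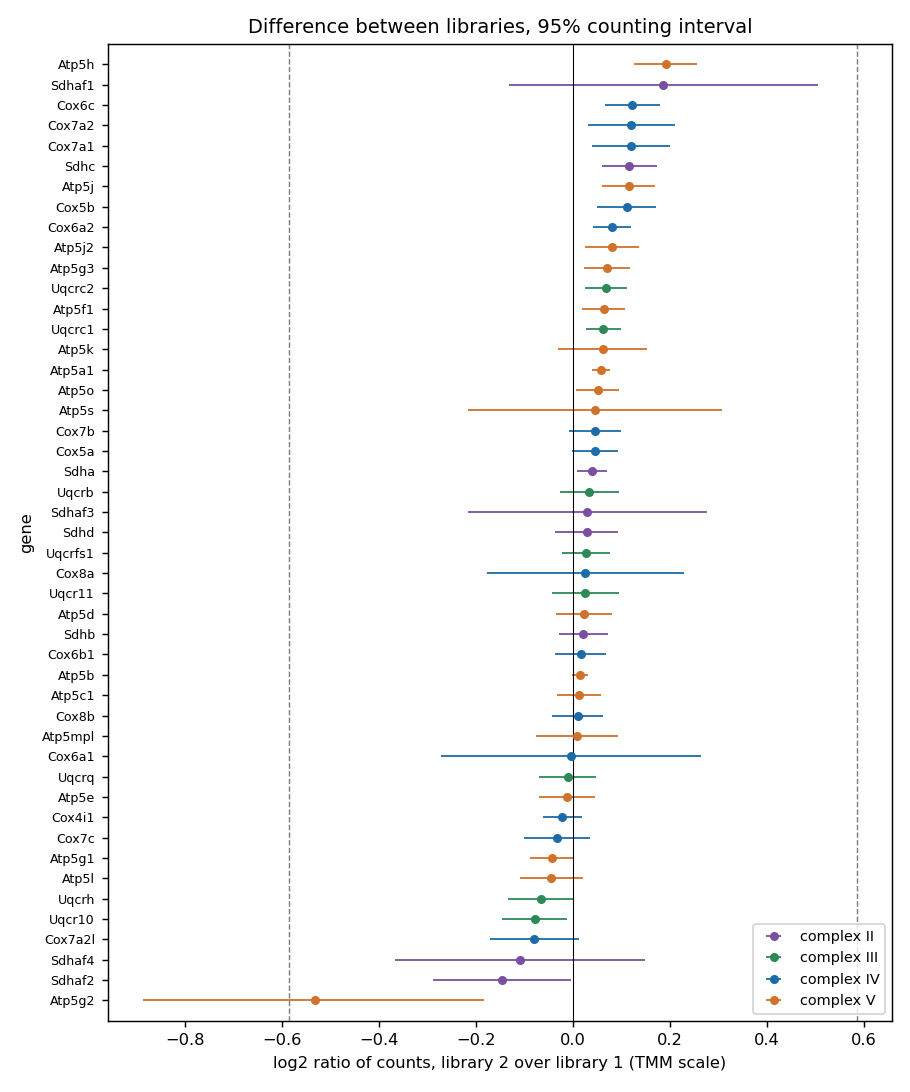
Log2 ratio of counts in library 2 over library 1 on the TMM scale for 47 members, with 95% counting intervals, coloured by complex. Dashed lines mark 1.5-fold. No point lies outside them, Atp5g2 is lowest at -0.53 and Atp5h highest at 0.19.

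Other genes of complexes III to V that the symbol rule leaves out were also present. Of 40 such nuclear genes listed, 39 were matched, the exception being Dmac2l, a later symbol of Atp5s. In the first quantifier all 39 were at TPM 1 or above in both libraries, with a median of 17.9 TPM. In the second quantifier Pet117 was below TPM 1, at 0 and 0.329 TPM against 2.24 and 2.85 in the first. Cycs stood at 26.95 and 32.94 TPM in the first quantifier and 145 and 168 in the second. Of 38 compared, 0 were 1.5-fold apart, beside 3.29% of background genes, and 27 were higher in library 2, beside 52.0%. Ndufa4, now counted as a complex IV subunit, stood at 533.89 and 604.39 TPM, and Usmg5, a small complex V subunit, at 450.03 and 474.92 TPM. Cyc1, the cytochrome c1 of complex III, stood at 158.89 and 189.37 TPM, close to Uqcrc2 and Uqcrfs1. Atpif1, the inhibitor of complex V, stood at 21.63 and 24.33 TPM.

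Of the subunits encoded in mitochondrial DNA, mt-Co1 stood at 12151.97 and 14350.66 TPM, well above any nuclear subunit of complex IV, whereas mt-Co2 stood at 566 and 578 TPM, below Cox8b and Cox6a2. The second quantifier gave mt-Co2 2415 and 2932 TPM, mt-Co3 6726 and 8365 against 1601 and 1941 in the first, and mt-Atp6 11762 and 15642 against 3671 and 4580. For mt-Atp8, whose gene overlaps mt-Atp6, the quantifiers gave 3994 and 4925 TPM in the first and 6.66 and 10.8 TPM in the second, and the levels of these 4 are not settled.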

How the data were processed

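Total RNA of 2 gastrocnemius libraries of 1 group was analysed. Per the deposited read-me, the assembly was mm10 with GENCODE M21. The program names are not given in the sources used here. Per the file headers, the gene table and 1 transcript table have the columns RSEM writes (the first quantifier), and the other transcript table has those kallisto writes (the second). The expected counts and estimated counts deposited by the authors are not whole, since reads that fit several genes are shared. The deposited TPM is relative to every entry of its table, spike-ins included. The deposited percent of each transcript within its gene was recomputed here from TPM. The posterior SD of the expected count is a score deposited by the authors.

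The members, gene lists, motifs, thresholds and alternatives were chosen with earlier results of these data known. Named genes are the isoform pairs, up to 5 leading members per complex, members below TPM 1, the 5 furthest apart between libraries, those over 1.5-fold apart between quantifiers and those with most reads in copies. Gene models, transcripts and coordinates were taken from GENCODE M21, and promoters from RefSeq (GRCm38.p6). Levels and pair ratios used deposited TPM of the gene tables with no pseudocount. Ratios between libraries used rounded expected counts with TMM scaling (edgeR 4.0.16, R 4.3.3) and exact binomial 95% intervals; DESeq2 1.42.0 size factors were an alternative. Scaling and intervals were tested on simulated data. A gene at 0 counts could hold up to 3 counts, which is 0.0843 CPM in library 1 and 0.0869 in library 2. Words of 31 bases were compared with all other genes' transcripts. Entries with a numeric identifier (1 and 0 counts) and spike-ins were left out. Reads of CAST alleles were assigned against mm10, and the effect on single members was not tested.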

Additional observations from a re-analysis of the deposited data

How the results depend on the processing

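The share of nuclear protein-coding TPM (3.535%) was 4.02% in the second quantifier, 1.49% of all gene TPM, 1.20% in expected counts, 4.18% with the second quantifier's effective lengths and 3.86% with copies added. The log2 ratio of Cox6a2 over Cox6a1 was 5.11 in the second quantifier, 5.13 with a pseudocount of 1 TPM, 5.28 over protein_coding transcripts, 5.50 in counts and 5.11 with the second's lengths. For Cox7a1 over Cox7a2 it was 0.81 in the second quantifier, 1.51 over protein_coding transcripts, 0.33 in counts and 1.49 with those lengths. For Cox8b over Cox8a it was 4.75, 4.57 with the pseudocount, 3.82 in counts and 5.02. For Cox4i1 over Cox4i2 it was 9.30, and 8.09 with the pseudocount. Between libraries, spike-in scaling turned the median to -0.043, with 1 member 1.5-fold apart (Atp5g2). On that scale 10 members were higher in library 2, beside 34.4% of the background. Deposited TPM gave a median of 0.20. Without the filter on low counts 1 member, Cox6b2 with 2 and 4 counts, was 1.5-fold apart. The settings with the second's lengths or with copies were chosen after seeing the data. Of 121 alternative values for 18 results, 72 moved by less than their criterion (the SD between libraries, 0.1 for a median or 1.5 times for a count), 48 moved by more and 1 reversed. The 72 include means with 1 of the 2 libraries left out, which cannot move by more than that SD and so tested nothing. No paired analysis was possible because there is 1 group. Depth limits Cox4i2, Cox6b2, Cox7b2 and Cox8c, whose counts were 18 or fewer in each library.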

Other observations

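The transcripts behind the members' gene levels were not always annotated as protein_coding. In 8 of 48 members, transcripts of other types held over 10% of the gene's TPM in both quantifiers: Sdhaf2, Cox5b, Cox7a2, Cox7b, Atp5b, Atp5f1, Atp5h and Atp5j. No share over all genes is given beside this count. The processed transcript Cox5b-205 held 64.2% of Cox5b in the first quantifier and 66.1% in the second. The retained-intron transcript Atp5j-208 held 91.0% and 73.7% of Atp5j. For Atp5f1, the b subunit of the peripheral stalk, a transcript annotated as subject to nonsense-mediated decay held 48.9% and 39.0%. The retained-intron transcript Cox7b-203 held 52.9% of Cox7b in the first quantifier and 97.7% in the second. Such entries are often short (526 bases for Cox7b-203 against 1001 for Cox7b-201), so a given number of reads yields a higher TPM.

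The leading transcript differed between quantifiers for 6 of 48 members: Sdhc, Uqcrh, Cox6b1, Atp5g1, Atp5g3 and Atp5h. Here too the share over all genes is not given. For Atp5g1, Atp5g1-202 held 98.9% in the first quantifier and Atp5g1-203 held 99.3% in the second, although both are annotated as protein_coding and the gene level was within 1.5-fold. For Sdhc, the 298-base transcript Sdhc-203 held 39.8% in the first and 55.0% in the second. The sum over a gene's transcripts was therefore closer between the quantifiers than the choice of transcript for these members.

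Of the 7 pseudogenes that carry a member's symbol followed by -ps, 6 were at 0 TPM in both libraries, whereas Gm12338 held 1974 and 1925 counts and Gm10175 3591 and 3511 in the first quantifier. Myh6, listed as a heart marker, stood at 59.22 and 78.21 TPM in the first quantifier and 21.1 and 29.0 in the second, while the heart markers Nppa and Myl7 were below TPM 1 and Myl4 was at 3.07 and 2.51.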
